A study of Mus musculus with 9 samples.

Results

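The expression of genes that control or carry out fat storage was followed in sclerotome cultures, namely the transcription factors Pparg, Cebpa, Cebpb and Cebpd and the lipid genes Lpl, Fabp4, Plin2 and Gpat3. The members were all probe sets annotated to 1 of these 8 symbols alone, which gave 14 of the 45037 probe sets tested and 8 of the 18193 genes with a single symbol. The 9 Affymetrix arrays formed 3 groups of 3, made from cultures treated with TGF-β1 (5 ng/ml), treated with BMP4 (50 ng/ml) or left untreated. All groups were micromass cultures, in which dissociated mesenchymal cells are plated as a dense drop, of sclerotome taken ventral to the neural tube of E11.5 wild type mouse embryos after the notochord had been removed. Treatment lasted 8 h. The records disagree on when treatment began, since they place it both after a night in culture and soon after the cells had attached. The study describes 3 separate repeats of the experiment. Unless stated otherwise, p values rest on the spread among the arrays within the groups, with no term for the repeat.

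Sclerotome, a compartment of the somite, builds the vertebrae and the discs between them, and its mesenchymal cells can also be steered toward other connective tissue fates. In fat cell formation, C/EBPβ and C/EBPδ act early and help to switch on PPARγ and C/EBPα, which then maintain each other and the genes of the mature fat cell. Lipoprotein lipase frees fatty acids from circulating lipoproteins, Fabp4 carries them inside the cell, Gpat3 performs the first step of glycerolipid synthesis, and Plin2 coats lipid droplets in many cell types. BMP4 can commit mesenchymal precursors to the fat lineage, whereas TGF-β is known as an inhibitor of adipogenesis.

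The deposited values were taken as log2 signals, the base being that of the study's stated method and not marked in the table, with each probe set being centred on its own median over the 9 arrays. A value of 0 is therefore the middle value for that probe set, which several arrays can share, and not a low signal. Levels cannot be compared between genes. Values are given below as log2 values for arrays 1, 2 and 3 of a group, and differences as log2 ± SE from a limma model of the 3 groups. A probe set was called changed when its Benjamini-Hochberg adjusted p over the 45037 probe sets was under 0.05. Because whole cultures were measured, fewer cells of a type and less RNA per cell cannot be told apart.

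Compared with untreated cultures, BMP4 raised 3 of the 4 transcription factors (Pparg, Cebpa and Cebpd) and lowered Lpl. TGF-β1 raised Gpat3 and lowered Cebpa, Lpl and Plin2. In this model Cebpa was the only one of the 8 genes called in opposite directions by the growth factors, and its TGF-β1 call was lost in some alternatives. Gpat3 was also called in opposite directions with the repeat number as a block or without TGF-β1 array 2. By probe set, TGF-β1 raised 1 and lowered 4 of 14, beside 4.43% called among all probe sets (1.83% higher and 2.60% lower). BMP4 raised 3 and lowered 1 of 14, beside 5.44% of all (2.31% higher and 3.13% lower). Directly compared, TGF-β1 arrays were higher than BMP4 arrays for Gpat3 and lower for Pparg, Cebpa, Cebpd and Lpl, 1 higher and 4 lower of 14 probe sets beside 6.91% of all (3.41% higher and 3.49% lower). With the repeat number as a block, 7 of 14 were called in the direct comparison, and the calls among all probe sets numbered 5252 with the block and 3110 without it. For TGF-β1 against untreated they numbered 4029 with the block and 1993 without it. For BMP4 against untreated they numbered 4069 with the block and 2449 without it. There the block called 7 of 14 (4 higher and 3 lower). If the numbers pair the TGF-β1 arrays with both other groups, they also pair BMP4 with untreated arrays. The median difference over the 14 probe sets was -0.14 for TGF-β1 minus untreated (0.01 over all probe sets). It was 0.06 for BMP4 minus untreated (0.00 over all) and -0.22 for the direct comparison (0.01 over all). Both growth factors were set against the same 3 untreated arrays. Each was tested at its stated dose only, so a difference between the factors cannot be told apart from the doses chosen.

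**Figure D1:**
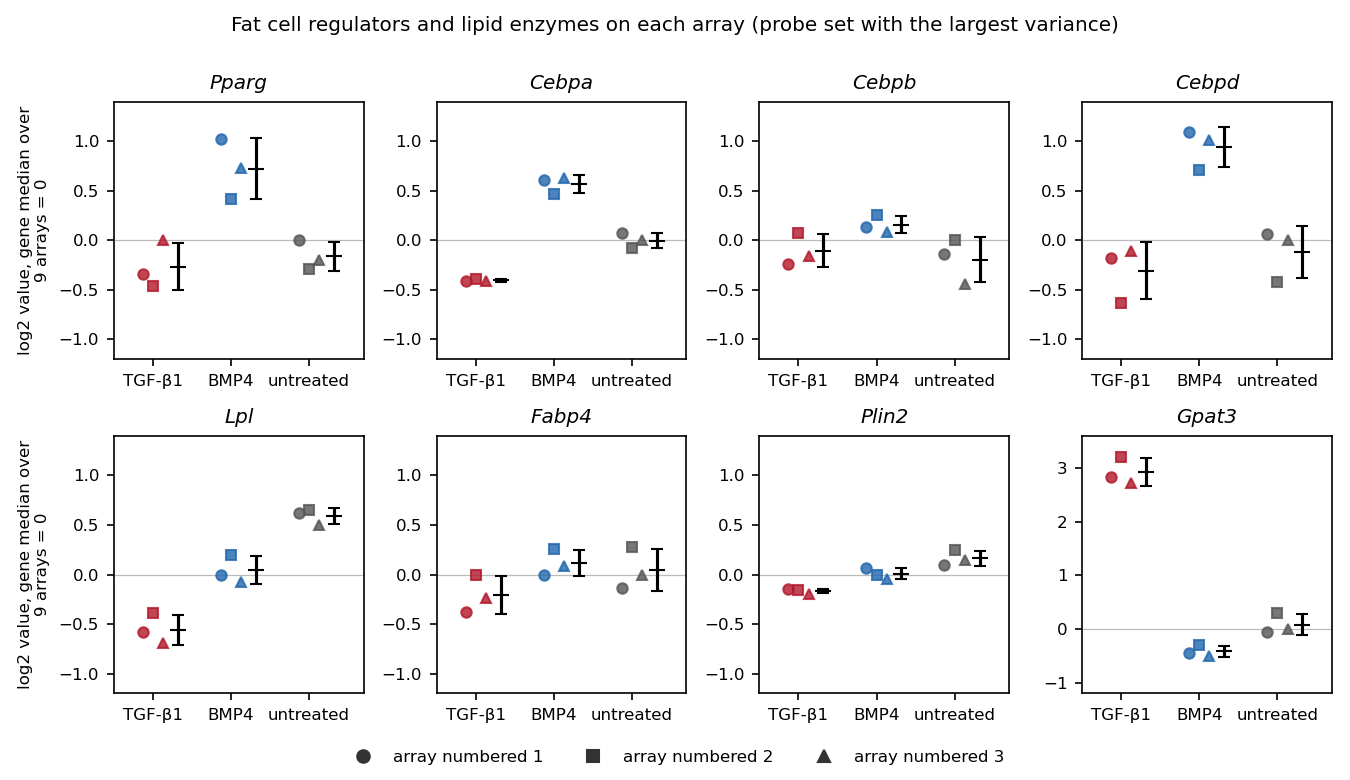
Each panel plots the log2 value (y axis, gene median over the 9 arrays set to 0) of 1 gene on the 3 TGF-β1, 3 BMP4 and 3 untreated arrays (x axis), using the probe set with the largest variance. Symbols mark the array number and bars the mean ± SD (n = 3). Gpat3 has its own, wider y axis, on which the TGF-β1 arrays reach 2.72 to 3.21, whereas Pparg, Cebpa and Cebpd are highest on the BMP4 arrays.

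Start site windows of 3 genes are shown because these genes carry the contrasting responses: Gpat3 was raised by TGF-β1, Pparg by BMP4, and Cebpa moved both ways. They are the 250 bases before the annotated start in RefSeq (GRCm38.p6), all on the plus strand, and are written 5′ to 3′. Capitals mark matches, on either strand, to the Smad box CAGAC, the GC-rich Smad element GGCGCC, the C/EBP word TTGCNNAA, the PPAR response element (a direct repeat of AGGTCA with 1 base between the copies) or the TATA box TATAAA. In the C/EBP word N is any base, so a match need not hold a complete GCAA after TTGC. The first is chr5:100845979-100846228, the second chr7:35119043-35119292, and the third chr6:115421816-115422065, the most downstream of 3 Pparg windows.
Gpat3: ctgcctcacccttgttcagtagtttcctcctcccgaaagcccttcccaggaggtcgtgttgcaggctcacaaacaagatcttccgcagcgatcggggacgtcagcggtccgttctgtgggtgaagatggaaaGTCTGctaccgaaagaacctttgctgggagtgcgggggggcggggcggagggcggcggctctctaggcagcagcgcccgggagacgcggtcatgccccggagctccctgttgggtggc
Cebpa: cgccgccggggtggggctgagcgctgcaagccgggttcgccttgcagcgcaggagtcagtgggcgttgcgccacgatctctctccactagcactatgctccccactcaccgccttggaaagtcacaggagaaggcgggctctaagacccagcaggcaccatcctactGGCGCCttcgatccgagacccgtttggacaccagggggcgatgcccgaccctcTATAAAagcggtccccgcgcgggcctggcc
Pparg: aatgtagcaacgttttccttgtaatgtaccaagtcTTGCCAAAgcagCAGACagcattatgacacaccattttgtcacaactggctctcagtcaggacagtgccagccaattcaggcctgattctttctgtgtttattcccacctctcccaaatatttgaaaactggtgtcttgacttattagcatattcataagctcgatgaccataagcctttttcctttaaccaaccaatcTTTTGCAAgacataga

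The Gpat3 window held 1 match, a Smad box 118 bases before the start. The Cebpa window held a GC-rich Smad element 83 bases and a TATA box 30 bases before the start, and no Smad box. The Pparg window held the C/EBP word 215 and 16 bases and a Smad box 203 bases before the start. It had 40.8% G and C, against 64.0% in the Gpat3 and 66.4% in the Cebpa window. The 2 upstream Pparg windows, which are not printed, had 82.4% and 63.6% G and C and held no Smad box and no C/EBP word. The first of them held a GC-rich Smad element and the second a TATA box. Such short words are common: of 32841 RefSeq windows of the same length, 42.2% held the Smad box, 9.59% the GC-rich Smad element, 9.57% the C/EBP word, 12.4% the TATA box and 0.0335% the PPAR response element. Windows were found for 5 of the 8 genes, 7 windows in all, of which 3 held the Smad box, 2 the GC-rich Smad element, 1 the C/EBP word, 2 the TATA box and 0 the PPAR response element. No matches overlapped in the printed windows. A match is a match of letters only.

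Pparg encodes the nuclear receptor that is required for fat cell formation. Its log2 values were -0.34, -0.46 and 0.00 on the TGF-β1 arrays, 1.03, 0.42 and 0.73 on the BMP4 arrays and 0.00, -0.29 and -0.20 on the untreated arrays. Every BMP4 array was above every other array, and the TGF-β1 and untreated arrays overlapped. Pparg was raised 1.85-fold by BMP4 (log2 0.89 ± 0.16, adjusted p = 0.012). TGF-β1 minus untreated was -0.10 ± 0.16 (adjusted p = 0.79), with a 95% interval of -0.47 to 0.26. The direct difference was -0.99 ± 0.16, 1.99-fold lower with TGF-β1 than with BMP4 (adjusted p = 0.0054).

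Cebpa, which encodes C/EBPα, a factor that works with PPARγ in mature fat cells and also in liver and myeloid cells, was the tightest of the regulators. Its values were -0.41, -0.39 and -0.41 on the TGF-β1 arrays, 0.61, 0.46 and 0.63 on the BMP4 arrays and 0.07, -0.08 and 0.00 on the untreated arrays. The 3 groups did not overlap, with BMP4 above, untreated between and TGF-β1 below. BMP4 raised Cebpa 1.49-fold (0.57 ± 0.08, adjusted p = 0.0023), TGF-β1 lowered it 1.32-fold (-0.40 ± 0.08, adjusted p = 0.018), and TGF-β1 was 1.96-fold below BMP4 (-0.97 ± 0.08, adjusted p = 8.5e-05). The call for TGF-β1 against untreated was lost without untreated array 1 (adjusted p = 0.073) or without TGF-β1 array 1 (0.067), 2 (0.052) or 3 (0.067). It was also lost without the 3 arrays numbered 2 and when only the more variable part of the probe sets was fitted. In all, it held in 10 of 17 alternatives.

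Cebpd, which encodes the early factor C/EBPδ, showed the largest BMP4 effect among the 8 genes. Probe set 1423233_at had log2 values of -0.18, -0.64 and -0.11 with TGF-β1, 1.09, 0.71 and 1.02 with BMP4 and 0.06, -0.42 and 0.00 without treatment. The array numbered 2 was the lowest of its group each time, and all BMP4 arrays lay above all others. BMP4 raised it 2.08-fold (1.06 ± 0.17, adjusted p = 0.0062), by 1.03, 1.13 and 1.02 within the same-numbered arrays. TGF-β1 minus untreated was -0.19 ± 0.17 (adjusted p = 0.61, 95% interval -0.57 to 0.19), and TGF-β1 was 2.37-fold below BMP4 (-1.25 ± 0.17, adjusted p = 0.0020). The second Cebpd probe set, 1456605_at, disagreed: it had 0.00, -0.18 and 0.00 with TGF-β1, 0.02, 0.00 and 0.10 with BMP4 and -0.08, -0.19 and 0.23 without treatment. Its differences of -0.05 (TGF-β1 minus untreated, adjusted p = 0.86), 0.05 (BMP4 minus untreated, 0.90) and -0.10 (TGF-β1 minus BMP4, 0.68) were not called. The Cebpd result thus rests on 1 of its probe sets, which varied over the arrays more than 98.7% of all probe sets, against 38.5% for the other.

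Cebpb, whose product C/EBPβ acts beside C/EBPδ early in adipogenesis, was the 1 transcription factor of the 4 that was not called in any comparison of this model. Probe set 1418901_at had -0.24, 0.08 and -0.15 with TGF-β1, 0.13, 0.25 and 0.09 with BMP4 and -0.14, 0.00 and -0.44 without treatment. The BMP4 arrays lay above the untreated arrays without overlap, by 0.35 ± 0.12 (95% interval 0.08 to 0.63), which missed the threshold (adjusted p = 0.16). This difference was called with the repeat number as a block (adjusted p = 0.041). TGF-β1 minus untreated was 0.09 ± 0.12 (adjusted p = 0.75, 95% interval -0.19 to 0.36), and TGF-β1 minus BMP4 was -0.26 ± 0.12 (adjusted p = 0.27). The second probe set, 1427844_a_at, had 0.00, 0.33 and 0.00 with TGF-β1, 0.04, 0.11 and -0.13 with BMP4 and -0.15, -0.08 and -0.10 without treatment. Its differences were 0.22 ± 0.11 for TGF-β1 minus untreated (adjusted p = 0.29), 0.12 ± 0.11 for BMP4 minus untreated (0.66) and 0.10 for TGF-β1 minus BMP4 (0.65). The 2 Cebpb probe sets therefore gave the TGF-β1 minus BMP4 difference with opposite signs, neither of them called.

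Lpl, the lipoprotein lipase gene, was lowered by both growth factors, and at these doses more by TGF-β1. Probe set 1415904_at had log2 values of -0.58, -0.39 and -0.69 with TGF-β1, 0.00, 0.20 and -0.07 with BMP4 and 0.62, 0.65 and 0.50 without treatment. The groups formed 3 separate steps, with untreated highest and TGF-β1 lowest. TGF-β1 lowered it 2.21-fold (-1.14 ± 0.10, adjusted p = 0.00042) and BMP4 lowered it 1.46-fold (-0.55 ± 0.10, adjusted p = 0.013), a BMP4 call that was lost without BMP4 array 1 (adjusted p = 0.055). The difference between the growth factors was itself called, 1.51-fold lower with TGF-β1 than with BMP4 (-0.60 ± 0.10, adjusted p = 0.0067). The second probe set, 1431056_a_at, had -0.51, -0.19 and -0.57 with TGF-β1, 0.13, 0.00 and -0.15 with BMP4 and 0.32, 0.78 and 0.35 without treatment. It gave the same order of group means. Its fall with TGF-β1 was called (-0.91 ± 0.14, 1.87-fold, adjusted p = 0.0082). BMP4 minus untreated (-0.49 ± 0.14, adjusted p = 0.091) and TGF-β1 minus BMP4 (-0.42 ± 0.14, adjusted p = 0.13) were not, although both were called with the repeat number as a block (adjusted p = 0.025 and 0.039).

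Fabp4, the fatty acid binding protein used as a marker of fat cells, had 4 probe sets and none was called. The one with the largest variance, 1417023_a_at, had -0.38, 0.00 and -0.23 with TGF-β1, 0.00, 0.26 and 0.09 with BMP4 and -0.14, 0.27 and 0.00 without treatment. The TGF-β1 arrays lay at or below the lowest BMP4 array and overlapped the untreated arrays, and the array numbered 2 was the highest of its group each time. TGF-β1 minus untreated was -0.25 ± 0.13 (adjusted p = 0.33, 95% interval -0.54 to 0.04) and BMP4 minus untreated 0.07 ± 0.13 (adjusted p = 0.87, 95% interval -0.22 to 0.36). TGF-β1 minus BMP4 was -0.32 ± 0.13 (adjusted p = 0.19), and it was called with the repeat number as a block (adjusted p = 0.016). The probe set 1451263_a_at gave -0.28 ± 0.11 for TGF-β1 minus untreated (adjusted p = 0.21), -0.18 for BMP4 minus untreated (0.47) and -0.09 for TGF-β1 minus BMP4 (0.70). The other 2, 1424155_at and 1425809_at, differed by 0.01 to 0.08 in all comparisons and were among the less variable probe sets on the arrays.

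Plin2, the lipid droplet coat protein, moved least among the called genes. Its values were -0.15, -0.16 and -0.19 with TGF-β1, 0.06, 0.00 and -0.04 with BMP4 and 0.10, 0.24 and 0.14 without treatment. The groups did not overlap and stood in the same order as for Lpl. TGF-β1 lowered it 1.26-fold (-0.33 ± 0.07, adjusted p = 0.032). The call was lost without any 1 of 7 arrays, with adjusted p of 0.062, 0.10 and 0.052 without untreated arrays 1, 2 and 3, 0.05 without BMP4 array 2, and 0.087, 0.078 and 0.10 without TGF-β1 arrays 1, 2 and 3. In all, it held in 6 of 17 alternatives. BMP4 minus untreated was -0.16 ± 0.07 (adjusted p = 0.31, 95% interval -0.31 to 0.00), and TGF-β1 minus BMP4 was -0.17 ± 0.07 (adjusted p = 0.21).

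Gpat3, the acyltransferase that starts glycerolipid synthesis from glycerol-3-phosphate, showed by far the largest difference of the 8 genes. Its log2 values were 2.82, 3.21 and 2.72 on the TGF-β1 arrays, -0.45, -0.30 and -0.51 on the BMP4 arrays and -0.06, 0.30 and 0.00 on the untreated arrays. All TGF-β1 arrays stood far above all others, and the BMP4 arrays lay below the untreated arrays without overlap. TGF-β1 raised Gpat3 7.14-fold over untreated cultures (2.84 ± 0.14, adjusted p = 1.3e-05), by 2.88, 2.91 and 2.72 within the same-numbered arrays. TGF-β1 was 10.1-fold above BMP4 (3.33 ± 0.14, adjusted p = 1.8e-06). BMP4 minus untreated was -0.50 ± 0.14, 1.41-fold lower in BMP4 cultures, and missed the threshold (adjusted p = 0.073). That difference was called when TGF-β1 array 2 was left out of the common spread (adjusted p = 0.034). It was also called with the repeat number as a block (adjusted p = 0.0061). Over all probe sets, deviations of same-numbered arrays in these 2 groups correlated at -0.05 to 0.50. Gpat3 had 1 probe set, so no second one was at hand to set beside it.

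**Figure D2:**
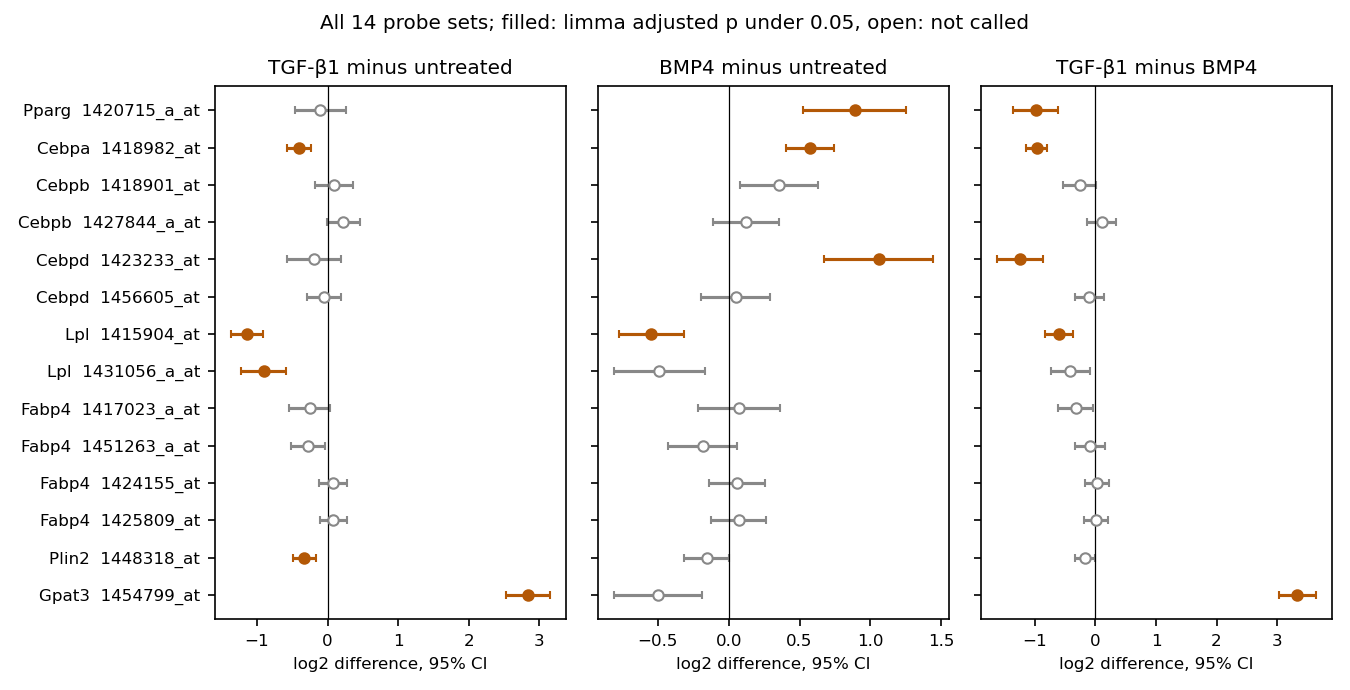
For each of the 14 probe sets (rows) the points give the log2 difference (x axis) in 3 panels (TGF-β1 minus untreated, BMP4 minus untreated, TGF-β1 minus BMP4), and the bars are 95% intervals. Filled points have an adjusted p under 0.05. Gpat3 lies at 2.84 and 3.33 in the TGF-β1 panels, and the x axes differ between panels.

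By gene, taking the probe set with the largest variance, the arrays of TGF-β1 and untreated cultures did not overlap for 4 of 8 genes (25.9% of all genes), those of BMP4 and untreated cultures for 7 of 8 (23.1%), and those of TGF-β1 and BMP4 cultures for 8 of 8 (30.0%). By probe set, the arrays did overlap for 8, 6 and 5 of 14 in the same order, beside 35198, 36045 and 33538 of all 45037. Fabp4 counts as separate in the last comparison by a narrow gap, -0.0043 on the highest TGF-β1 array against 0 on the lowest BMP4 array. Called genes numbered 4 of 8 for TGF-β1 against untreated (6.75% of all genes), 4 of 8 for BMP4 against untreated (7.96%) and 5 of 8 for TGF-β1 against BMP4 (10.1%). The 8 genes were selected with earlier results of these arrays known, so these shares describe the genes and do not test them.

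Genes whose values over the 9 arrays followed a called member most closely were sought among all genes, by Pearson r between the probe sets with the largest variance. The 9 points share their 3 treatment groups, so r mostly reflects the group means. Gpat3 was most like Adamtsl2 (r = 0.992), which differed by 2.13 for TGF-β1 minus untreated and -0.30 for BMP4 minus untreated on the log2 scale. Cebpd was most like Grhl1 (r = 0.995; -0.20 and 1.55 in the same order) and then Gata3 (r = 0.993), and Pparg was most like Trim9 (r = 0.986; -0.13 and 1.25). Cebpa was most like Kit (r = 0.983; -0.52 and 0.97), Lpl most like Rspo2 (r = 0.982; -1.40 and -0.60) and Plin2 most like Fbxl20 (r = 0.989; -0.58 and -0.29).

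Around the 8 genes, 7 lists of other fat cell and lipid genes were counted, each by 1 probe set per gene. Among 27 measured adipogenic transcription regulators, TGF-β1 raised 1 and lowered 4, and BMP4 raised 7 and lowered 3, with a list median of -0.0041 for TGF-β1 and 0.12 for BMP4. Over all genes 6.75% were called with TGF-β1 and 7.96% with BMP4, the shares against which the counts of the lists that follow are also to be read. Gata2 and Gata3, which hold preadipocytes back from differentiating in mouse, rose with BMP4, Gata3 6.15-fold (2.62 ± 0.33, adjusted p = 0.0018) and Gata2 3.15-fold (1.65 ± 0.11, adjusted p = 7.2e-05). Klf2, another inhibitor that represses Pparg in preadipocytes, rose 2.28-fold with BMP4 (1.19 ± 0.15, adjusted p = 0.0016). The other 4 regulators raised by BMP4 were Klf4 (1.14 ± 0.16, adjusted p = 0.0031), Klf15 (0.96 ± 0.17, adjusted p = 0.0082) and Nr3c1, the glucocorticoid receptor (1.09 ± 0.17, adjusted p = 0.0052), which promote adipogenesis, and Trib3, an inhibitor (0.65 ± 0.13, adjusted p = 0.015, 0.061 without BMP4 array 2). The genes raised by BMP4 thus include promoters and inhibitors of fat cell differentiation. The 3 it lowered were Ppard, Ebf2 and Zfp521, each of which lost its BMP4 call without untreated array 1 (adjusted p of 0.10, 0.077 and 0.066 for these genes) and without at least 1 BMP4 array. Ebf1, which promotes adipogenesis, fell 2.47-fold with TGF-β1 (-1.30 ± 0.20, adjusted p = 0.0077), and BMP4 minus untreated was -0.30 (adjusted p = 0.55). TGF-β1 also lowered Ebf2 1.83-fold (-0.87 ± 0.10, adjusted p = 0.0014), Ppargc1a (-0.62 ± 0.12, adjusted p = 0.019) and Nr3c1 (-0.75 ± 0.17, adjusted p = 0.038). It raised Trib3 1.78-fold (0.83 ± 0.13, adjusted p = 0.0065). The Nr3c1 call with TGF-β1 was lost when any array but untreated array 3 was left out (adjusted p 0.056 to 0.13). The stability of the Ppargc1a call was not tested.

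Among 17 measured genes of fatty acid uptake, binding and activation, TGF-β1 raised 1 and lowered 3, and BMP4 also raised 1 and lowered 3. Angptl4, a secreted inhibitor of lipoprotein lipase, was lowered by both, 1.71-fold by TGF-β1 (-0.77 ± 0.12, adjusted p = 0.0087) and 1.80-fold by BMP4 (-0.85 ± 0.12, adjusted p = 0.0035), the TGF-β1 call being lost without the 3 arrays numbered 2 (adjusted p = 0.071). Lpl and the gene for its inhibitor were thus both lower in treated than in untreated cultures. Cd36, a fatty acid transporter of the cell surface, fell 1.81-fold with TGF-β1 (-0.86 ± 0.13, adjusted p = 0.0067). Lipg, the endothelial lipase and a relative of Lpl, rose 1.71-fold with TGF-β1 (0.77 ± 0.16, adjusted p = 0.028), a call lost without TGF-β1 array 1 or 2 or any untreated array (adjusted p 0.054 to 0.088). Fabp7, the brain fatty acid binding protein, rose 2.25-fold with BMP4 (1.17 ± 0.11, adjusted p = 0.00040), whereas its relative Fabp4 was not called.

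The 20 genes of glycerolipid synthesis other than Gpat3 had 0 raised and 1 lowered by TGF-β1, and 2 raised and 2 lowered by BMP4. None of the other 3 glycerol-3-phosphate acyltransferase genes, Gpam, Gpat2 and Gpat4, was called in either comparison. Plpp3, a lipid phosphate phosphatase, fell 1.67-fold with TGF-β1 (-0.74 ± 0.11, adjusted p = 0.0072) and 1.42-fold with BMP4 (adjusted p = 0.030). Agpat enzymes, which act on the product of Gpat3, went both ways with BMP4: Agpat3 fell 1.70-fold (-0.76 ± 0.11, adjusted p = 0.0032), and Agpat2 rose 1.37-fold (0.45 ± 0.07, adjusted p = 0.0055) and Agpat5 1.27-fold (0.34 ± 0.08, adjusted p = 0.042). The Agpat2 call was lost without the 3 arrays numbered 2 (adjusted p = 0.082). The Agpat5 call was lost when any array but BMP4 array 3 was left out (adjusted p 0.054 to 0.16). The BMP4 call of Plpp3 was lost without any BMP4 array or untreated array 1 or 2 (adjusted p 0.069 to 0.11).

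Of 16 lipid droplet and lipolysis genes other than Plin2, Plin5, a droplet coat protein of oxidative tissues, rose 1.28-fold with TGF-β1 (0.35 ± 0.08, adjusted p = 0.032), and Mgll, monoglyceride lipase, 1.32-fold with BMP4 (0.40 ± 0.09, adjusted p = 0.027). The Plin5 call was lost when any array but BMP4 arrays 2 and 3 was left out (adjusted p 0.051 to 0.10), and the Mgll call without any BMP4 array or untreated array 1 or 2 (adjusted p 0.072 to 0.097). Of 16 genes of fatty acid synthesis and desaturation, TGF-β1 raised 1 and lowered 1, and BMP4 raised 2 and lowered 1. Me1, malic enzyme, which supplies NADPH for fatty acid synthesis, rose with both, 1.71-fold with TGF-β1 (0.77 ± 0.11, adjusted p = 0.0059) and 1.81-fold with BMP4 (0.86 ± 0.11, adjusted p = 0.0022). Elovl6, a fatty acid elongase, fell with TGF-β1 (-0.59 ± 0.13, adjusted p = 0.037), a call lost when any array but TGF-β1 array 2 and BMP4 arrays 1 and 2 was left out (adjusted p 0.055 to 0.13). With BMP4, Fads3, a desaturase, fell 1.68-fold (-0.75 ± 0.14, adjusted p = 0.015), a call lost without BMP4 array 2 or untreated array 1 or 3 (adjusted p 0.052 to 0.058). The elongase Elovl1 rose 1.41-fold with BMP4 (adjusted p = 0.048), which was lost when any array but untreated array 1 and TGF-β1 array 2 was left out (adjusted p 0.061 to 0.16). Of 8 measured fatty acid oxidation genes, Cpt2, a mitochondrial carnitine palmitoyltransferase, fell 1.52-fold with TGF-β1 (-0.61 ± 0.09, adjusted p = 0.0070, 0.072 without the 3 arrays numbered 2) and Acadm, an acyl-CoA dehydrogenase, fell 1.59-fold with BMP4 (-0.67 ± 0.10, adjusted p = 0.0048).

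Products of the mature fat cell formed a further list. Of 7 measured, BMP4 changed 0 by the limma test, with 1 at an unadjusted p under 0.05, and TGF-β1 lowered 1 and raised 0. Adipoq, the adiponectin gene that PPARγ activates in fat cells, differed by 0.01 ± 0.10 for BMP4 minus untreated (adjusted p = 0.99, 95% interval -0.22 to 0.23) and by 0.15 ± 0.10 for TGF-β1 minus untreated (adjusted p = 0.49). The gene lowered by TGF-β1 was Slc2a4, the insulin-responsive glucose transporter (-0.42 ± 0.08, 1.34-fold, adjusted p = 0.023), a call lost without any TGF-β1 array or untreated array 2 or 3 (adjusted p 0.054 to 0.080).

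**Figure D3:**
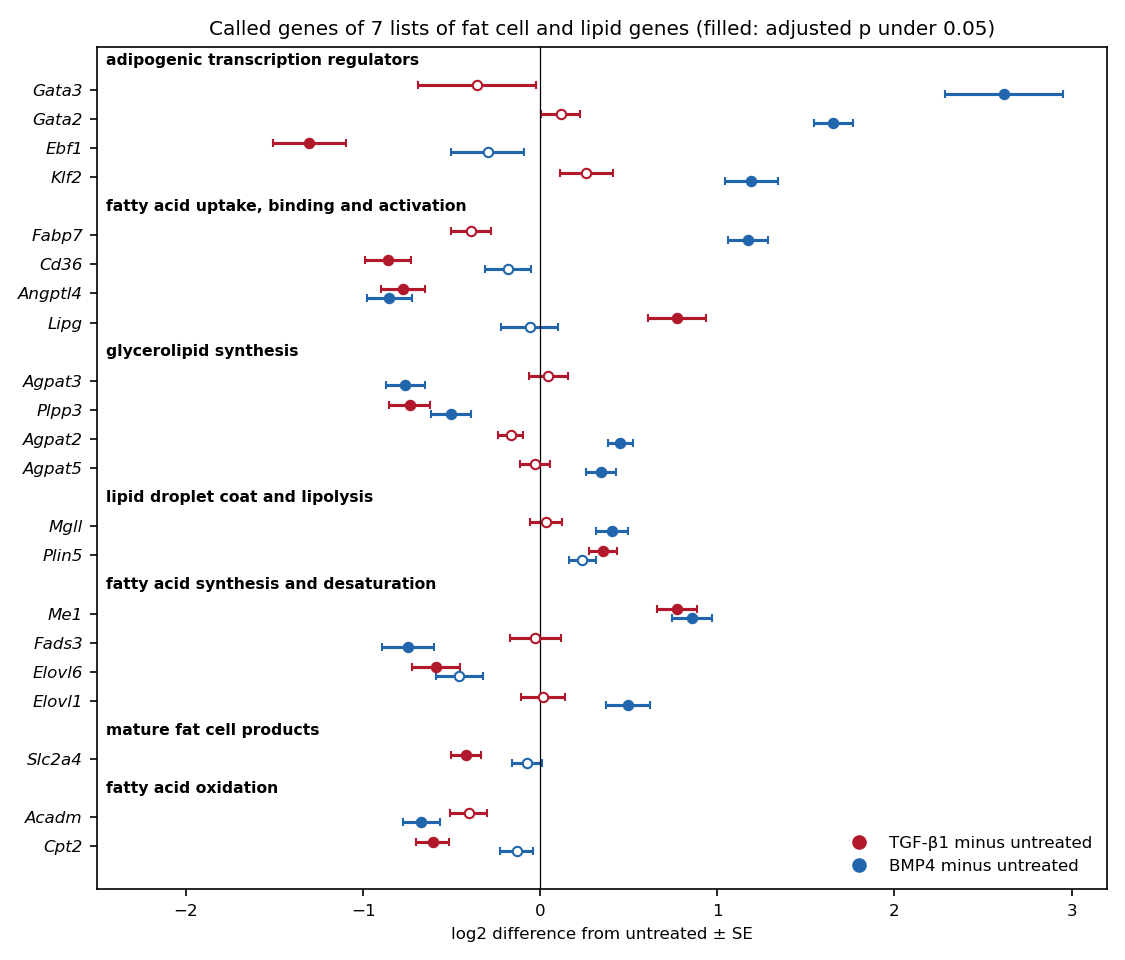
Called genes of the 7 lists (y axis), at most 4 a list, are plotted by their log2 difference from untreated ± SE (x axis), with TGF-β1 in red and BMP4 in blue. Filled points have an adjusted p under 0.05. Gata3 lies farthest to the right at 2.62 with BMP4 and Ebf1 farthest to the left at -1.30 with TGF-β1.

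Cell type markers were read beside these results. The 6 measured fat cell markers are probe sets already counted in the lists above, so they give the same values again. The mean of the 6 measured fat cell markers ranged from -0.09 to 0.09 on the TGF-β1 arrays, from -0.05 to 0.02 on the BMP4 arrays and from -0.03 to 0.04 on the untreated arrays, and 1 of the 6 (Slc2a4) was called. Macrophages also express Lpl, Plin2 and Cd36. Of 6 macrophage markers, TGF-β1 lowered Mrc1 (-0.86 ± 0.13, adjusted p = 0.0062) and Cd68 (-0.46 ± 0.09, adjusted p = 0.019). The Cd68 call was lost without TGF-β1 array 1 or 3 or untreated array 1 (adjusted p 0.071 to 0.076). The mean of the 6 ranged from -0.22 to 0.06 on the TGF-β1 arrays, -0.05 to 0.03 on the BMP4 arrays and 0.06 to 0.24 on the untreated arrays. The part of macrophage RNA in the falls of Lpl, Plin2 and Cd36 was not tested. Of 8 sclerotome markers, TGF-β1 changed 0 by the limma test (2 at an unadjusted p under 0.05), and BMP4 lowered 5, their mean being -0.03 to 0.15 on the TGF-β1 arrays, -0.50 to -0.44 on the BMP4 arrays and 0.00 to 0.47 on the untreated arrays. Of 3 measured erythroid markers none was called by limma in any comparison (2 for TGF-β1 and 3 for BMP4 against untreated had an unadjusted p under 0.05). Their mean ranged from -0.55 to 0.19 on the TGF-β1 arrays, from -0.51 to 0.09 on the BMP4 arrays and from -0.21 to 1.49 on the untreated arrays, where arrays 1 and 3 stood at 1.38 and 1.49. Of 6 skeletal muscle markers, the myogenic factor Myf5 rose with BMP4 (0.83 ± 0.11, adjusted p = 0.0021) and the other 5 were not called. The median difference of the 6 for BMP4 minus untreated was -0.12. For TGF-β1 minus untreated it was -0.25, with 0 called by limma and 3 at an unadjusted p under 0.05. The mean of the muscle markers was -0.34 to -0.07 on the TGF-β1 arrays, -0.02 to 0.14 on the BMP4 arrays and 0.02 to 0.09 on the untreated arrays. Of 6 endothelial and 4 neuronal markers limma called 0 against untreated, with 1 endothelial marker (BMP4) at an unadjusted p under 0.05. The part of blood or muscle RNA in the differences from untreated was not tested. Whether a marker was present or absent could not be judged, since the centred values hold no level.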

How the data were processed

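Total RNA of each culture (50 ng) was amplified in cDNA cycles, labelled with biotin and hybridised to 1 Affymetrix mouse array. The deposited log2 values were made by the authors with RMA in GeneSpring. The sources used here give no RMA version. All 45101 probe sets had a median of 0 across the 9 arrays (tolerance 1e-06), so the values had been centred per probe set. Values ran from -3.83 to 4.01. Signal over background could not be judged, no filter on low values was possible, and 14 of 14 member probe sets were tested.

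The 64 control probe sets were left out. Gene symbols came from the platform annotation. Of the 45037 probe sets, 34945 had 1 symbol, 932 several and 9160 none. A gene with several probe sets is represented by its most variable one across the arrays, picked without the group labels. That variance includes differences between the groups, so the choice can favour probe sets that respond to treatment. For genes of the lists, other probe sets are not shown. The model was fitted with limma 3.58.1 in R 4.3.3 (lmFit and eBayes) over the 3 groups and all 9 arrays, with 6 residual and 4.01 prior degrees of freedom and a median residual SD of 0.129 log2 units. P values are two-sided, with Benjamini-Hochberg adjustment over 45037 probe sets. The number of arrays limits the precision. The fitting code was run on simulated data with independent normal noise and no repeat effect, so that run does not cover shared repeats. Figures were drawn with Python 3.11.15.

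The array titles number the repeats 1 to 3. Deviations from the group means of same-numbered arrays correlated at 0.14 to 0.49 between TGF-β1 and untreated and at 0.29 to 0.50 between TGF-β1 and BMP4, over 0.1 in 3 of 3 pairs each, and these comparisons were also fitted with the number as a block. Between BMP4 and untreated they correlated at -0.05 to 0.50, with 2 of 3 pairs over 0.1, and this comparison was fitted with the block too. The titles do not say whether arrays with the same number come from the same repeat.

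Members and lists were chosen with earlier results of these data known. Named from the lists were the called genes, at most 4 a list by the size of the difference from untreated, and the 2 genes most like each called member were computed, of which the text gives those it discusses. Gpam, Gpat2, Gpat4, Klf4, Klf15, Nr3c1, Trib3, Ppard, Ppargc1a, Ebf2, Zfp521, Adipoq, Mrc1, Cd68 and Myf5 were named outside that rule after their values were seen. Alternatives were the block, leaving out arrays, array weights, median centring, quantile normalization, a fit of 2 groups, the larger-variance part of the probe sets and the methods' t-test.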

Additional observations from a re-analysis of the deposited data

How the results depend on the processing

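Leaving out single arrays, the other normalizations and the other fits reversed 0 of the 14 called differences of the member probe sets. Apart from the t-test, calls were lost for Cebpa and Plin2 (TGF-β1 minus untreated) and for Lpl 1415904_at (BMP4 minus untreated without BMP4 array 1). Array weights and quantile normalization changed no call of a member. Median centring could not change a call, because every array already had a median of 0. It is still among the alternatives counted with the results. All 14 were lost under the methods' t-test, here the form for 2 groups of the unequal-variance test named in the methods, run per probe set with Benjamini-Hochberg adjustment, which called 0 member probe sets in each comparison and, of all probe sets, 0 for TGF-β1 minus untreated, 0 for BMP4 minus untreated and 11 for TGF-β1 minus BMP4. At an unadjusted p under 0.05 with a 2-fold difference, it gave 253 of all probe sets and 2 members for TGF-β1 minus untreated, 433 and 1 for BMP4 minus untreated, and 543 and 2 for TGF-β1 minus BMP4. Of 60 called differences of list genes and markers, 31 were lost in at least 1 alternative other than the t-test.

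With the replicate number as a block, 4029 probe sets were called for TGF-β1 minus untreated, 4069 for BMP4 minus untreated and 5252 for TGF-β1 minus BMP4. For BMP4 minus untreated 3 of 6 arrays correlated best with their own number. This held for 5 of 6 arrays for TGF-β1 minus untreated and 6 of 6 for TGF-β1 minus BMP4. If the numbers mark shared repeats, the block applies to all 3 comparisons. For BMP4 minus untreated the block called 7 members (4 higher and 3 lower). It added Cebpb 1418901_at (adjusted p = 0.041), Lpl 1431056_a_at (0.025) and Gpat3 (0.0061). In the TGF-β1 comparisons, beyond the calls given with the results, the block changed no call of a member. Without the 3 arrays numbered 2, the count was 888 for TGF-β1 minus untreated, with 3 members, 1200 for BMP4 minus untreated and 1819 for TGF-β1 minus BMP4. Fits of only the groups compared called 1172 for TGF-β1 minus untreated and 1617 for BMP4 minus untreated. The larger-variance part of the probe sets left 3 members for TGF-β1 minus untreated. Leaving out each array in turn gave 867 to 2053 probe sets and 3 to 5 members for TGF-β1 minus untreated, 1431 to 2262 probe sets for BMP4 minus untreated and 1877 to 3330 for TGF-β1 minus BMP4.

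Signs turned only for differences that were not called. Without the arrays numbered 2, Cebpd 1456605_at was -0.0195 for BMP4 minus untreated, and with quantile normalization Fabp4 1425809_at was -0.0073 for TGF-β1 minus BMP4. Over single arrays left out, TGF-β1 minus untreated ranged from -0.0333 to 0.19 for Cebpb 1418901_at and from -0.14 to 0.0728 for Cebpd 1456605_at, and BMP4 minus untreated from -0.0389 to 0.17 for Cebpd 1456605_at and from -0.0192 to 0.19 for Fabp4 1417023_a_at. TGF-β1 minus BMP4 ranged from -0.008 to 0.16 for Cebpb 1427844_a_at, from -0.16 to 0.0136 for Fabp4 1451263_a_at, from -0.0061 to 0.0457 for Fabp4 1424155_at and from -0.0323 to 0.0581 for Fabp4 1425809_at.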
